A study of Ipomoea batatas with 12 samples.

Results

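The genes described here are those whose messenger RNA was lower in sweet potato leaves after either of 2 signalling peptides than after water, 258 of the 32301 genes in the table. They were chosen on read counts scaled to a library total of 1000000 (CPM), taken as L = log2(CPM + 0.5). A gene was taken when its mean water level was at least 1 CPM and when its mean L lay at least 0.58 below water both with IbHypSysIV and with IbPep1. In addition, each of the 8 peptide libraries had to lie below each of water replicates 1, 2 and 4. Water replicate 3 counted in the water means but was left out of this last condition. Of the 20558 genes with the required water level, 1415 met the difference with IbHypSysIV and 1941 that with IbPep1. Both were met by 405 genes, of which 258 also met the condition on single libraries.

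Leaves were from the cultivar Tainong 57 of sweet potato (Ipomoea batatas), the third leaf of plants raised from scions for 3 weeks, and RNA was sequenced after 1 h of treatment. The groups were IbHypSysIV, IbPep1 and water as the control, with 4 libraries each, all of the same cultivar, leaf and time. For the IbPep1 libraries the source name reads IbPep1 in each, while a separate treatment field counts from IbPep1 to IbPep4, and the group was taken from the source name. Whether each library came from its own plant is not stated, and a p-value here therefore reflects only the spread between these libraries, part of which may be technical. The labels give no peptide dose and no way of application.

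Hydroxyproline-rich systemins, after which IbHypSysIV is named, and plant elicitor peptides, after which IbPep1 is named, are families of short peptides that plants cut from longer precursor proteins. In plants where they have been studied, elicitor peptides are sensed by receptor kinases at the cell surface and act as danger signals released by damage. Both families are known for inducing defence genes. The genes described here were chosen for being lower than in water, and whether any is a defence gene was not analysed here.

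The table gives gene identifiers only, and 0 of them matched the reference gene table at hand. The function of the 258 genes, the presence of leaf marker genes and near-identical copies that share reads were therefore not analysed here, and only identifiers can be named. Strand is not stated either, so a gene and another that overlaps it or runs antisense to it cannot be told apart.

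Total counts were 16607188 to 25073251 in the IbHypSysIV libraries, 19862106 to 23153078 with IbPep1 and 20243058 to 23898419 in water. A floor of 3 counts thus corresponds to 0.120 to 0.181 CPM, for counting error only. Per group, the share of reads in the most abundant gene of a library was smallest in IbHypSysIV replicate 4 (2.05%), IbPep1 replicate 3 (1.61%) and water replicate 3 (2.29%), against 2.79% to 3.87% in the other libraries. These 3 libraries stood apart. The counts called in each comparison and the count of genes that meet the rule are given with and without them. Most other values include them.

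Together, the 258 genes took 0.653%, 0.636%, 0.549% and 0.568% of all reads in IbHypSysIV replicates 1 to 4. With IbPep1 they took 0.553%, 0.6004%, 0.488% and 0.559%. In water the shares were 1.21%, 1.23%, 0.835% and 1.16%. The means were 0.601% ± 0.0509 with IbHypSysIV, 0.550% ± 0.0463 with IbPep1 and 1.11% ± 0.184 in water (SD, n = 4 each). All 8 peptide libraries lay below all 4 water libraries in this sum, and water replicate 3 was the lowest of the water libraries. The choice of the genes fixes this direction. In leaf RNA in bulk, fewer cells of a type and less RNA per cell cannot be told apart.

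On mean L, the median gene was lowered by less than 2-fold with either peptide. The median difference in mean L was -0.84 with IbHypSysIV, with a range of -2.10 to -0.59, and -0.89 with IbPep1, with a range of -2.88 to -0.58. The median gene thus stood at 0.558 of its water level with IbHypSysIV and at 0.538 with IbPep1 on this scale. At least 1 log2 unit below water were 68 genes with IbHypSysIV and 102 with IbPep1, 46 of them with both. The remaining 134 genes lay less than 1 unit below water with either peptide. These values chose the genes and describe them only.

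Many genes sat close to the limit of 0.58. In 91 of the 258, the weaker of the 2 differences was within 0.1 of it. The 5 genes just inside had a weaker difference of -0.58 each, and the 5 just outside had -0.58 to -0.57, so the edge separates genes that hardly differ. With a limit of 1 the list held 46 genes.

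**Figure D1:**
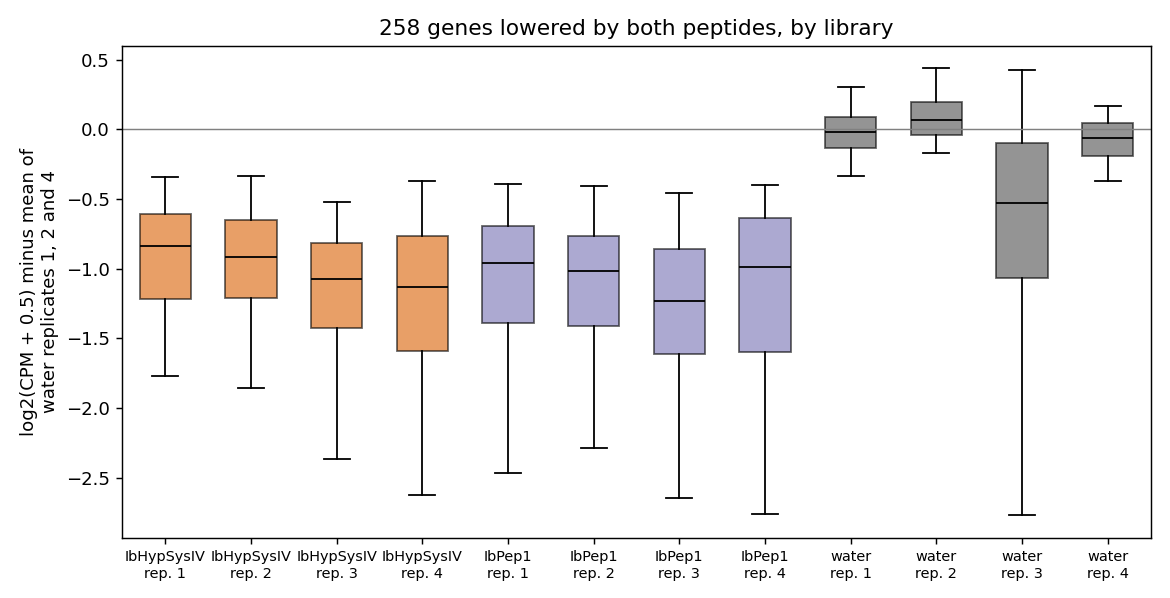
For each library (horizontal axis), boxes show the quartiles and whiskers the 5th to 95th percentiles, over the 258 genes, of log2(CPM + 0.5) minus the mean of water replicates 1, 2 and 4. The medians of the 8 peptide libraries lie between -1.23 and -0.84, and water replicate 3 has a median of -0.53, between them and the other water libraries.

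The genes ranged from barely detected to abundant. Their mean water level had a median of 15.9 CPM, with quartiles of 6.15 and 43.9 CPM, against 16.6 CPM with quartiles of 5.27 and 42.5 CPM for all 20558 genes of at least 1 CPM in water. In water, 51 of them averaged 1 to 5 CPM, 93 averaged 5 to 20 CPM, 91 averaged 20 to 100 CPM and 23 averaged at least 100 CPM. In these 4 classes the median difference in mean L from water ran from -0.91 to -0.80 for IbHypSysIV and from -0.93 to -0.87 for IbPep1. The 23 genes at 100 CPM or more had the deepest median with each peptide, -0.91 and -0.93, close to -0.86 and -0.90 at 20 to 100 CPM. The 0.5 added to CPM shrinks differences at low levels, so nothing is read from this order. In 14 genes, at least 1 peptide group averaged under 0.5 CPM, and 3 genes had 0 counts in at least 1 library.

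The most abundant of the 258, itf08g07570, was singled out after its values were seen. It stood at 1283, 1149, 1060 and 1178 CPM in IbHypSysIV replicates 1 to 4, at 1002, 1356, 738 and 1007 CPM with IbPep1 and at 1956, 1680, 1501 and 2085 CPM in water. Its peptide libraries all lay below its 4 water libraries. It made up 16.3% of the summed mean water CPM of the 258 genes, and the 10 most abundant together made up 37.3%.

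The fit across all genes shows how many of the 258 pass a test that also weighs the spread between libraries. Lower with IbHypSysIV were 52 of the 258 (20.2%), against 1.10% of all 23193 genes tested (edgeR's quasi-likelihood test, Benjamini-Hochberg adjusted p under 0.05). With IbPep1, 159 were lower (61.6%), against 6.01% of all genes tested by the same edgeR test. The rule used these same contrasts and libraries, so nothing is read from either share. All 258 genes passed the filter on low counts. Lower with both peptides were 44 genes, with IbHypSysIV alone 8, with IbPep1 alone 115 and with neither 91. The same counts were not made over all genes tested, so these describe the 258 genes only. As 91 were called with neither, meeting the rule did not by itself give a call. A call with 1 peptide only does not show that the other acted differently. The fitted median log2 fold change was -0.91 with IbHypSysIV and -1.01 with IbPep1, against 0.01 and 0.00 over all genes tested.

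These counts depended on the method and on single libraries. Lower with IbHypSysIV were 142 of the 258 with DESeq2, against 3.80% of all genes, and 19 in a fit of the 2 groups alone, against 0.364%. For IbHypSysIV, 4, 9, 117 and 16 of the 258 were called lower without water replicates 1 to 4, against 0.115%, 0.285%, 1.73% and 0.315% of all genes tested in the same fits. The count was 2 without IbHypSysIV replicate 3 (all genes 0.0596%), 30 without replicate 4 of that group (0.542%) and 32 without IbPep1 replicate 1 (0.610%). The IbPep1 count was 71, 53 and 60 where water replicate 1, 2 or 4 was missing, against 2.002%, 1.26% and 1.27% of all genes. It was 81, 65 and 87 where IbPep1 replicate 1, 2 or 3 was missing, against 1.97%, 1.62% and 3.47%. Without the 3 libraries that stood apart, the counts were 139 for IbHypSysIV (all genes 2.24%) and 223 for IbPep1 (14.3%). In each of these fits the share of all genes called lower moved in the same direction as the count among the 258.

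By the rule for named genes, the mean L furthest below water among genes of at least 5 CPM in water was that of itf10g01850 and itf04g03200 with IbHypSysIV, and that of itf10g01850 and itf03g18790 with IbPep1. The level of itf10g01850 was 1.86, 0.871, 0.359 and 0.120 CPM in IbHypSysIV replicates 1 to 4. With IbPep1 it was 0.385, 0.302, 0 and 0.0475 CPM, from 8, 6, 0 and 1 counts. In water it was 3.14, 28.5, 0 and 10.4 CPM. The water libraries thus ranged from no count in replicate 3 to 577 counts in replicate 2, and the groups overlap through replicate 3 alone. The fitted log2 fold change was -5.87 with IbPep1 (SE 1.43, adjusted p = 0.0261, same edgeR test) and -3.70 with IbHypSysIV (SE 1.20, adjusted p = 0.118, same edgeR test). Near the floor such fitted values depend on edgeR's prior count. The IbPep1 call was lost without water replicate 2 (log2 -4.62), water replicate 4 (-5.89) or any one of IbPep1 replicates 1 to 4 (-6.55, -6.24, -5.41 and -5.57), and with limma-voom (-4.10). The filter on low counts removed the gene in a fit of IbPep1 and water alone. Without water replicate 3 the gene also passed for IbHypSysIV (log2 -4.11, adjusted p = 0.0258, same edgeR test).

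The gene itf04g03200 passed the test with both peptides. It stood at 11.8, 6.92, 2.91 and 2.65 CPM in IbHypSysIV replicates 1 to 4, at 2.75, 4.53, 6.004 and 6.22 CPM with IbPep1 and at 26.5, 39.3, 13.8 and 19.8 CPM in water. No peptide library reached the lowest water library, which was replicate 3. The log2 fold change was -2.03 with IbHypSysIV (SE 0.47, adjusted p = 0.0438, same edgeR test) and -2.39 with IbPep1 (SE 0.48, adjusted p = 0.0133, same edgeR test). Between the peptides the value was -0.36 for IbPep1 over IbHypSysIV, with a 95% interval of -1.37 to 0.65. The IbPep1 call against water held in all alternatives run. The IbHypSysIV call was lost without water replicate 1, 2 or 4 (log2 -1.999, -1.70 and -2.13), without IbHypSysIV replicate 2, 3 or 4 (-2.14, -1.80 and -1.78), without IbPep1 replicate 1, 2 or 4 (-2.03, -2.04 and -2.03) and in a fit of the 2 groups alone (-2.03).

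For itf03g18790 the levels were 6.40, 4.35, 5.50 and 0.963 CPM with IbHypSysIV, 1.93, 0.352, 0.648 and 1.09 CPM with IbPep1 and 9.12, 26.0, 0.435 and 16.0 CPM in water. Water replicate 3 lay among the IbPep1 libraries here, and IbHypSysIV replicate 4 was far below the other 3 of its group. The log2 fold change was -3.71 with IbPep1 (SE 0.93, adjusted p = 0.0279, same edgeR test) and -1.56 with IbHypSysIV (SE 0.82, adjusted p = 0.312, same edgeR test). The call for IbPep1 was lost without water replicate 1, 2 or 4 (log2 -3.85, -3.09 and -3.61), without any one of IbPep1 replicates 1 to 4 (-4.24, -3.46, -3.52 and -3.77), and with limma-voom (-2.86). IbPep1 over IbHypSysIV was -2.15 and not called (adjusted p = 0.117, same edgeR test). It was called without water replicate 3 (-2.15) and in a fit of the 2 groups alone (-2.15). Without the 3 libraries that stood apart it was also called (-2.26, adjusted p = 0.0106, same edgeR test). Against water, IbHypSysIV then gave -1.65 (adjusted p = 0.0522, same edgeR test).

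**Figure D2:**
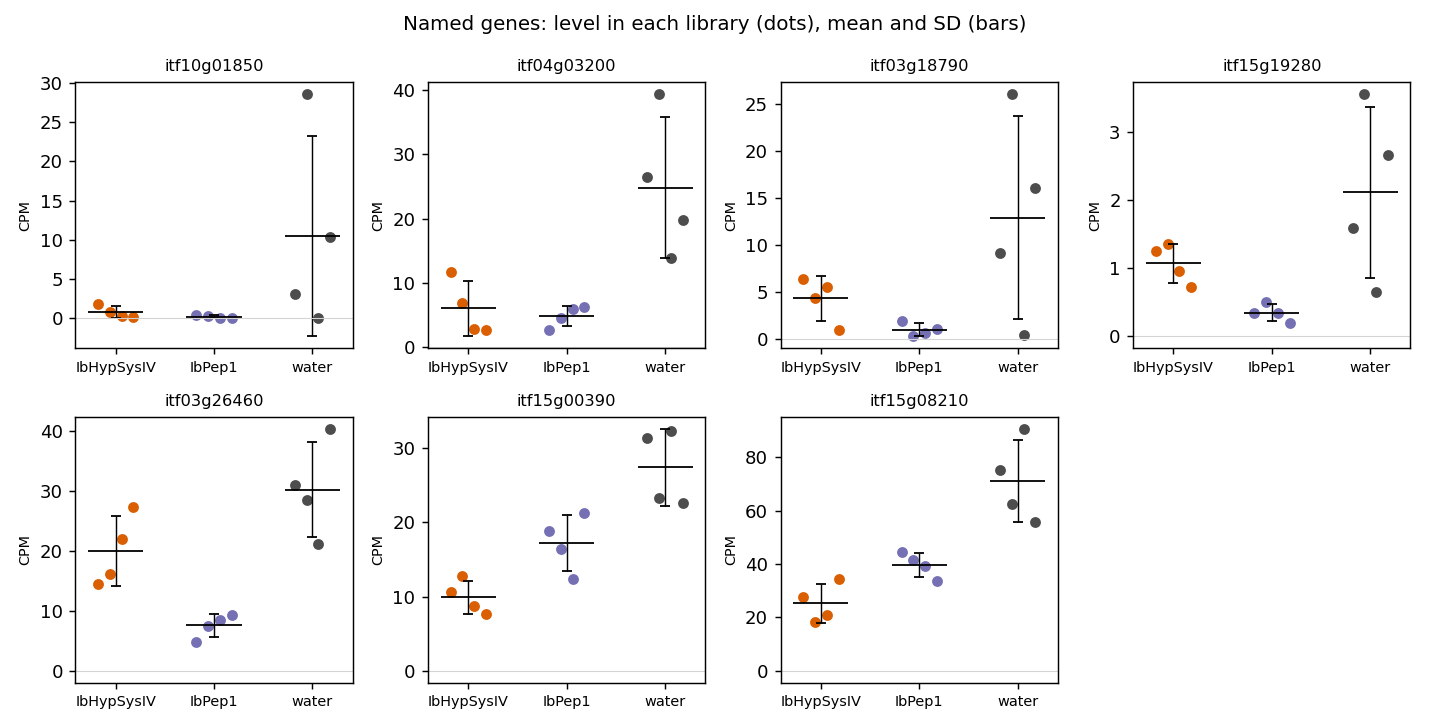
Each panel shows 1 named gene, with CPM on the vertical axis (a linear scale of its own), dots for the 4 libraries of each treatment in replicate order, and bars for the mean and SD. In itf10g01850 and itf03g18790 the water libraries range from 0 to 28.5 CPM and from 0.435 to 26.0 CPM, while in itf03g26460 the 4 IbPep1 libraries, at 4.82 to 9.40 CPM, lie below all 8 others.

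A direct comparison asked whether the 2 peptides lowered these genes to different levels. This contrast was not part of the rule, although a rule that asks both groups to lie below water limits how far they can differ. Of the 258 genes, 9 were lower and 2 higher with IbPep1 than with IbHypSysIV, 11 in all (4.26%), against 15.8% of all genes tested (9.14% lower and 6.70% higher, same edgeR test). The smaller share among the 258 is therefore no evidence that the peptides act alike on them. The median log2 fold change of IbPep1 over IbHypSysIV was -0.12, with quartiles of -0.37 and 0.06, against 0.00 with quartiles of -0.35 and 0.37 over all genes tested. It was below 0 in 177 genes and above 0 in 81, while on mean L, the scale of the rule, 151 genes were lower with IbPep1 and 107 were not. With library totals in place of TMM factors, the median was -0.06 in the 258 genes and 0.05 over all genes tested. The median of the 258 was also -0.05 without IbPep1 replicate 3, -0.07 without IbHypSysIV replicate 2 and -0.19 without IbHypSysIV replicate 4. In 147 of the 258 genes (57.0%) the peptides' difference had a 95% interval inside -1 to 1 on the log2 scale, against 57.2% of all genes tested. For the other 111 genes, a difference of 2-fold between the peptides was not excluded at this spread. Instead of 11, the fit called 7 of the 258 when water replicate 1 was left out (all genes 13.05%) and 26 when water replicate 3 was (21.6%). Leaving out IbHypSysIV replicate 2 or 3 gave 5 or 4, against 9.10% and 8.05% of all genes. Leaving out IbPep1 replicate 1, 2 or 4 gave 6, 2 or 7, against 9.10%, 7.01% and 10.98%. Without the 3 libraries that stood apart it was 34, against 23.9% of all genes, and with DESeq2 it was 19, against 20.5%.

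**Figure D3:**
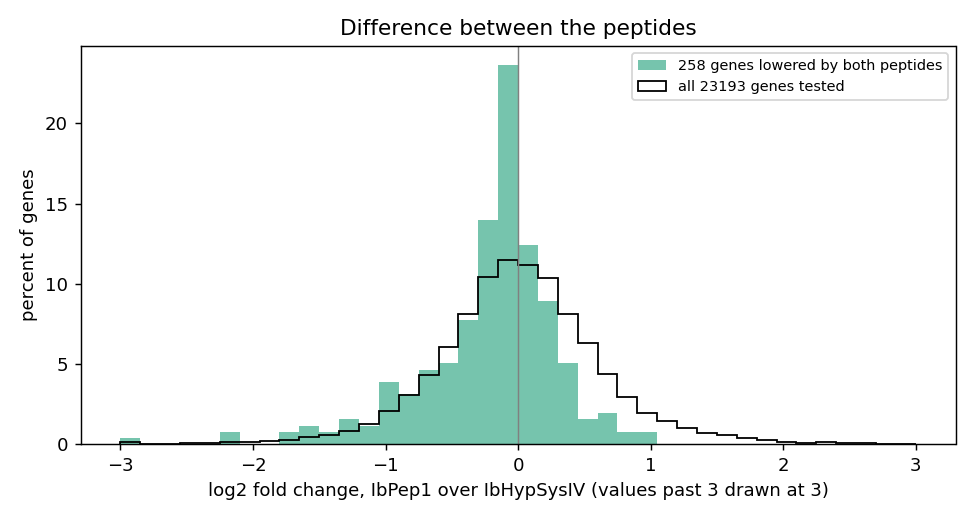
The horizontal axis gives the log2 fold change of IbPep1 over IbHypSysIV in bins of 0.15, and the vertical axis the percent of genes, for the 258 genes (filled) and all 23193 genes tested (line). The 258 genes have a median of -0.12 and reach from -2.95 to 0.99.

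The 9 genes that were lower with IbPep1 had log2 fold changes of -1.69 to -0.66, and in 7 of them (77.8%) all 4 IbPep1 libraries lay below all 4 IbHypSysIV libraries. The same held for 79.4% of the 2119 genes called lower over the whole table, for 13 of the 258 genes (5.04%) and for 10.5% of all genes tested. Furthest down was itf15g19280, at 0.337, 0.503, 0.346 and 0.190 CPM with IbPep1, 1.25, 1.35, 0.957 and 0.723 CPM with IbHypSysIV and 1.59, 3.56, 0.652 and 2.66 CPM in water. The IbPep1 values rest on 7, 10, 8 and 4 counts. This difference of -1.69 on the log2 scale (SE 0.52) is close to the threshold, with adjusted p = 0.0440 by the same edgeR test. The call was lost without water replicate 1 or 4 (log2 -1.69 each), without IbHypSysIV replicate 1, 2 or 3 (-1.64, -1.52 and -1.73), without any one of IbPep1 replicates 1 to 4 (-1.69, -1.94, -1.65 and -1.50), with every gene with a count tested (-1.69), and with limma-voom (-1.67).

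The second, itf03g26460, was far more abundant. It stood at 4.82, 7.55, 8.51 and 9.40 CPM with IbPep1, at 14.6, 16.2, 22.1 and 27.4 CPM with IbHypSysIV and at 31.0, 28.6, 21.2 and 40.4 CPM in water. The IbPep1 libraries were the lowest 4 of the 12, and only water replicate 3 lay among the IbHypSysIV libraries. IbPep1 was lower than IbHypSysIV by -1.45 on the log2 scale (SE 0.26; adjusted p = 0.00542 by that edgeR test) and lower than water by -2.03 (SE 0.26, adjusted p = 0.00306, same edgeR test). Both calls held in all alternatives run. Against water, IbHypSysIV gave -0.58 (SE 0.25, adjusted p = 0.224, same edgeR test).

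The 2 genes in the other direction were itf15g00390 and itf15g08210. The level of itf15g00390 was 18.9, 16.4, 12.4 and 21.3 CPM with IbPep1, 10.6, 12.7, 8.77 and 7.65 CPM with IbHypSysIV and 31.3, 23.3, 32.4 and 22.7 CPM in water. IbPep1 replicate 3 lay just below IbHypSysIV replicate 2, so the peptide groups overlap by that pair. The log2 fold change of IbPep1 over IbHypSysIV was 0.75 (SE 0.23, adjusted p = 0.0416, same edgeR test). That call was lost without water replicate 1 or 2 (log2 0.75 each), IbHypSysIV replicate 1, 3 or 4 (0.75, 0.70 and 0.62) or IbPep1 replicate 1, 2 or 4 (0.70, 0.76 and 0.62), and in a fit of the 2 groups alone (0.75). Against water it fell with IbHypSysIV (log2 -1.43, SE 0.23; adjusted p = 0.0145 by that edgeR test), a call lost without water replicate 1 (-1.35) or IbHypSysIV replicate 3 (-1.38). With IbPep1 the value was -0.68 (SE 0.22, adjusted p = 0.0654, same edgeR test).

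In itf15g08210 the levels were 44.4, 41.4, 39.3 and 33.6 CPM with IbPep1, 27.7, 18.2, 20.9 and 34.5 CPM with IbHypSysIV and 75.5, 62.7, 90.6 and 55.7 CPM in water. Only IbHypSysIV replicate 4 reached the range of the IbPep1 libraries. IbPep1 was higher than IbHypSysIV by 0.62 on the log2 scale (SE 0.18; adjusted p = 0.0385 by that edgeR test). That call was lost without water replicate 1 or 2 (log2 0.62 each), IbHypSysIV replicate 1, 2 or 3 (0.64, 0.52 and 0.56) or IbPep1 replicate 1 or 2 (0.55 and 0.58), and with library totals, the scale of the rule, in place of TMM factors (0.65). Against water the gene fell with IbHypSysIV (log2 -1.48, SE 0.19; adjusted p = 0.00460 by that edgeR test) and less deeply with IbPep1 (-0.86, SE 0.18, adjusted p = 0.0173, same edgeR test), and both of these calls held without any single library. In both genes water replicate 3 was the highest of the 12 libraries.

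A library left out of the choice can be set beside the libraries that made it. The rule was applied with each library left out in turn, and the left-out library was then looked at in the genes so chosen. With an IbHypSysIV library left out, 251 to 315 genes were chosen, and in 87.3% to 96.9% of them the left-out library lay below water replicates 1, 2 and 4. With an IbPep1 library left out, 247 to 272 genes were chosen and the share was 92.3% to 97.3%. Over all 20558 genes of at least 1 CPM in water, the same libraries lay below these 3 water libraries in 28.4% to 44.0% of genes for IbHypSysIV and in 33.7% to 40.6% for IbPep1. The median difference of the left-out library from mean water L was -0.88 to -0.52 for IbHypSysIV and -0.99 to -0.75 for IbPep1, against -0.11 to 0.10 over all those genes. The water libraries of this check were among those that chose the genes, so the shares are a description and partly follow from the choice.

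Among the water libraries, replicate 3 stood apart from replicates 1, 2 and 4 in this respect. Left out in turn, replicates 1, 2 and 4 lay above all 8 peptide libraries in 79.3%, 85.7% and 80.1% of the 290, 230 and 282 genes chosen without them, against 12.1%, 14.3% and 15.5% of all genes of at least 1 CPM. Without water replicate 3 the rule chose 426 genes, and replicate 3 lay above all 8 peptide libraries in 122 of them (28.6%), against 15.4% of all those genes. Of the 426, 240 were among the 258. The rule held the peptide libraries low in the genes of this check, so these shares too are a description and partly follow from the choice. The rule also differed between these checks. Without replicate 1, 2 or 4, the condition on single libraries used fewer water libraries, and replicate 3 stayed in the water mean. Without replicate 3, that condition was unchanged and only the water mean lost a library.

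**Figure D4:**
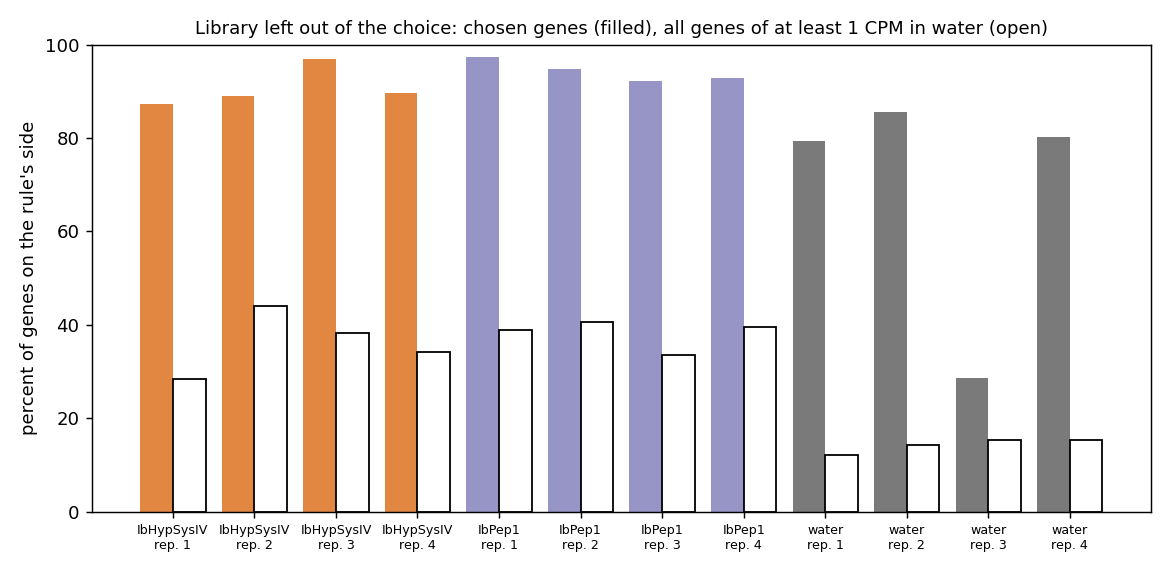
For each library (horizontal axis), the filled bar gives the percent of genes, chosen without that library, in which it fell on the side the rule asks for (below water replicates 1, 2 and 4 for a peptide library, above all 8 peptide libraries for a water library), and the open bar the same over all 20558 genes of at least 1 CPM in water. The filled bars reach 79.3% to 97.3% except for water replicate 3, at 28.6%.

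In those 426 genes, water replicate 3 lay within the range of the 8 peptide libraries in 258 and below all of them in 46. It was between the peptide and the other water libraries in 64, within the range of the other water libraries in 41 and above them in 17. Set on a scale from the mean of water replicates 1, 2 and 4 (0) to the mean of the peptide libraries (1), its median position was 0.82, with quartiles of 0.44 and 1.225. Among the 258 genes, where it helped to set the water mean, its median position was 0.52, with 11 genes below all peptide libraries, 123 within their range, 53 between, 39 within the range of the other water libraries and 32 above. All 4 water libraries thus lay above all 8 peptide libraries in 124 of the 258 genes, and in the other 134 only the 3 did. Over all genes of at least 1 CPM in water, replicate 3 lay above all 8 peptide libraries in 15.4%. The rule placed the other 3 water libraries there, and replicate 3 entered the water mean, so nothing is read from the 124.

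**Figure D5:**
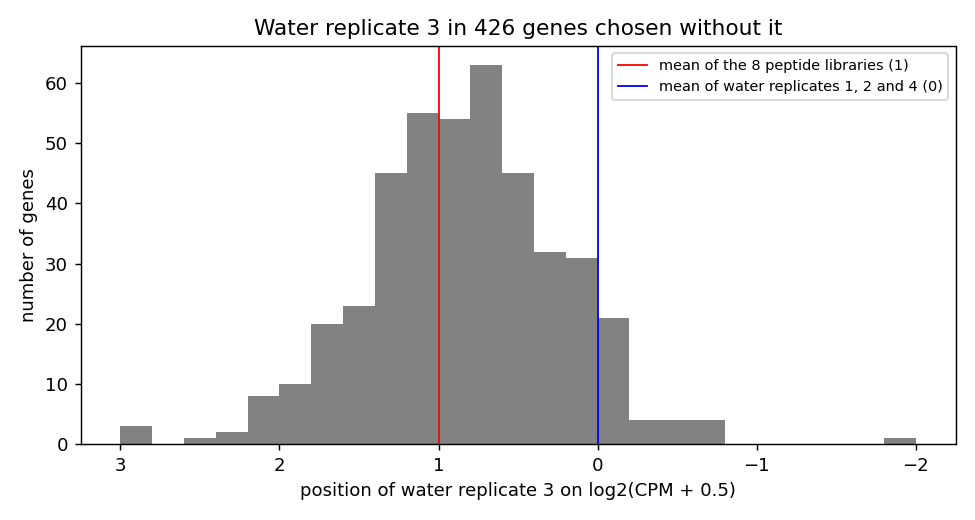
The horizontal axis gives the position of water replicate 3 on log2(CPM + 0.5) between the mean of the 8 peptide libraries (1, red) and the mean of water replicates 1, 2 and 4 (0, blue), and runs from high to low; the vertical axis counts genes among the 426 chosen without that library. The median is 0.82 and the quartiles are 0.44 and 1.225.

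Single genes reached far in both directions, as 2 genes chosen for this after their values were seen show. The gene itf13g16360 stood at 69.0, 4.84, 3.31 and 10.5 CPM with IbHypSysIV, at 5.40, 30.5, 17.5 and 6.41 CPM with IbPep1 and at 126, 125, 0.522 and 137 CPM in water replicates 1 to 4. Water replicate 3 was thus the lowest of the 12 libraries, and the other 3 water libraries were the highest. In itf06g22830 the levels were 27.0, 26.7, 29.1 and 43.2 CPM with IbHypSysIV, 28.0, 26.6, 36.8 and 41.5 CPM with IbPep1 and 59.5, 51.2, 161 and 54.2 CPM in water, where replicate 3 was the highest of all.

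The 124 genes with water replicate 3 above all peptide libraries and the other 134 are set side by side for the direct comparison of the peptides. The highest peptide library decides the split and also enters this comparison, so a difference between them is partly built in. The median log2 fold change of IbPep1 over IbHypSysIV was -0.06 in the 124 genes, with quartiles of -0.23 and 0.15. It was -0.17 in the 134 genes, with quartiles of -0.63 and 0.03. Of the 9 genes called lower with IbPep1, 3 were among the 124 and 6 among the 134, and both genes called higher were among the 124. The split was made after values were seen and was not tested.

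Within each treatment, the 258 genes were lowest most often in the 3 libraries that stood apart. Water replicate 3 was the lowest of its group in 187 genes (72.5%), against 31.7% of the 20558 genes of at least 1 CPM. This partly follows from the choice, since the rule holds the other 3 water libraries above the peptide libraries and leaves replicate 3 free. IbHypSysIV replicate 4 was the lowest in 40.7% of the genes, against 23.2%, and IbPep1 replicate 3 in 42.6%, against 23.6%. Over all those genes the same libraries had median L values above their group means, by 0.08, 0.08 and 0.11, while over the 258 genes their medians were -0.40, -0.16 and -0.15 from the group means. The part of this in the differences from water was not tested. With those 3 libraries left out of the rule together, 443 genes met it, 227 of them among the 258.

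The spread between libraries was larger in the 258 genes than over all genes of at least 1 CPM in water. The median SD of L over the 4 libraries was 0.38 with IbHypSysIV, 0.32 with IbPep1 and 0.35 in water, against 0.28, 0.24 and 0.26 over all those genes. The water value includes replicate 3, which the rule leaves free while it holds the other water libraries above the peptide libraries. How far the choice of the genes raised the spread was not tested.

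Grouped by depth, the genes at least 1 log2 unit below water with IbHypSysIV but not with IbPep1 numbered 22. They had a median water level of 22.3 CPM and included the 2 genes called higher with IbPep1 in the direct comparison. The 56 genes with the reverse pattern had a median water level of 15.9 CPM and included 8 of the 9 genes called lower with IbPep1. The remaining gene called lower was among the 46 at least 1 unit below with both peptides. These classes are cut on the peptides' own differences from water, so the side on which the called genes fall largely follows from the grouping. Water replicate 3 lay above all peptide libraries in 14 of the 22 genes, 22 of the 56, 18 of the 46 and 70 of the 134 genes less than 1 unit below with both. Over all genes of at least 1 CPM in water this was so in 15.4%. Replicate 3 is part of the water mean that sets these classes, so nothing is read from these counts.

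By identifier, the 258 genes were spread over all 16 prefixes of the table, from itf00 to itf15. Their share of the genes of at least 1 CPM in water ranged from 0.822% (9 of 1095 genes, itf13) to 1.68% (23 of 1370, itf02). The order of the identifiers is not stated to be the order along a chromosome. In the table, 32 of the 258 (12.4%) had another of the 258 within 5 places, against 8.09% of all genes of at least 1 CPM. They formed 16 pairs, of which 5 were in adjacent rows.

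In 1 of these pairs, picked after the values were seen for its steady ratio, the levels moved together from library to library. The level of itf02g13690 was 5.34, 32.5, 14.6 and 18.5 CPM with IbHypSysIV, 45.6, 16.2, 29.5 and 8.07 CPM with IbPep1 and 61.8, 72.0, 41.3 and 46.6 CPM in water. The level of itf02g13730 was 2.09, 15.8, 6.50 and 10.4 CPM with IbHypSysIV, 21.6, 6.95, 13.3 and 4.37 CPM with IbPep1 and 30.2, 37.1, 21.8 and 24.1 CPM in water. Both were lowest in IbHypSysIV replicate 1 and, among the IbPep1 libraries, in replicate 4. The ratio of their CPM stayed between 1.79 and 2.56 in the 12 libraries, a 1.43-fold range, against ranges of 1.65-fold to 11.7-fold in the other 15 pairs. Whether they share reads as near-identical copies was not analysed here. Neither passed the threshold in any of the 3 comparisons, with adjusted p of 0.131 and 0.126 for IbHypSysIV and 0.147 and 0.121 for IbPep1 against water, and 0.627 and 0.697 between the peptides (same edgeR test).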

How the data were processed

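The deposited values are raw counts of reads for each gene and library. Per the submitters' processing notes, the tools were HISAT2 2.0.5, HTSeq 0.6.1 and DESeq2 1.22.2, with no roles stated. Genome build and annotation: not given in the sources used here. The members and lists were chosen with earlier results of these data known. Levels are CPM of the library total. Tests used R 4.3.3 and edgeR 4.0.16: filterByExpr kept 23193 genes with 99.9% of all counts, TMM factors ranged from 0.914 to 1.10, and all 12 libraries entered 1 model with group as the only term (9 residual degrees of freedom). Quasi-likelihood p-values were Benjamini-Hochberg adjusted over all genes tested and called under 0.05; an SE is the log2 fold change over the root of its F statistic. The procedure was also run on counts simulated from its own model, for the comparison between the peptides only and with no library standing apart. The outcome is not given here. Alternatives used DESeq2 1.42.0, limma 3.58.1, other scalings and filters, and each library left out. Named genes were the 2 furthest below water per peptide in mean L among members of at least 5 CPM in water, and the 2 largest called differences each way between the peptides. Replicate numbers follow the order of the deposited samples and were not used to pair libraries. No pair of libraries of a group agreed within sampling noise (chi-square per degree of freedom at least 13.5). Without gene names, no list of genes by function was used.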

Additional observations from a re-analysis of the deposited data

Results flagged for a closer look

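Among 39 groups of 4 values looked at, 5 held a value whose gap to its nearest neighbour was large for the range of its group, by a limit that chance passes in about 1 of 20 groups. The share of reads in the 258 genes was 0.835% in water replicate 3, far below the other water libraries. This flag partly follows from the rule, which holds the other water libraries above the peptide libraries and leaves replicate 3 free. The level of itf13g16360 was far from its group in IbHypSysIV replicate 1, at 69.0 CPM, and in water replicate 3, at 0.522 CPM. The level of itf06g22830 was far from its group in IbHypSysIV replicate 4, at 43.2 CPM, and in water replicate 3, at 161 CPM. Both genes were chosen for their values in water replicate 3, so the flags in that library follow from the choice, while those in the IbHypSysIV libraries do not.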

How the results depend on the processing

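The number of genes that meet the rule was 46 with a limit of 1, 124 when all 4 water libraries had to lie above the peptide libraries, 405 without the condition on single libraries and 443 without the 3 libraries that stood apart, an alternative added after the data were seen. It was 248 with TMM factors, 215 and 291 with pseudocounts of 1 and 0.1, 207 with a minimum of 5 CPM, 269 with no minimum, and 230 to 426 with 1 library left out. The count of the 258 called lower with IbHypSysIV was 0 in edgeR with the replicate block on title numbers, where 0 of all 23193 genes were called either way. It was 52 with limma-voom, 19 with only the 2 groups compared (lower among all genes 0.364%), 142 with DESeq2 (3.80%) and 139 without the 3 libraries (2.24%); for IbPep1 it stayed within 1.5-fold of 159 in all alternatives but those without 1 library. The count between the peptides was 19 with DESeq2 (all genes 20.5%) and 34 without the 3 libraries (23.9%). With 1 library left out these counts were 2 to 117, 53 to 230 and 2 to 26. The replicate block gave 179 for IbPep1 (lower among all genes 6.73%) and 10 between the peptides, all lower (either way among all genes 2.59%), with a median between the peptides of -0.36. Under the block the IbHypSysIV calls of itf04g03200, itf15g00390 and itf15g08210 were lost (log2 -1.40, -1.08 and -1.49), as were the calls between the peptides of itf15g00390 (0.34), itf15g08210 (0.81) and itf15g19280 (-2.07). Title numbers are shared by 3 IbPep1 and water pairs, with correlations of deviations of -0.06 to 0.14, and by 2 pairs in the other comparisons (-0.08 to 0.10 for IbHypSysIV and water, -0.06 to -0.04 between the peptides). Pairs without a shared number ranged from -0.48 to 0.48. So few pairs cannot show whether the samples were paired. The difference of itf04g03200 between the peptides, not called, ranged from -0.61 to 0.12 with 1 library left out and was above 0 only without IbHypSysIV replicate 1. For single named genes, 61 values lost a call, 7 gained one, 370 did neither and kept their direction, and 1, that of itf04g03200, changed direction with no call. The median SE of the 258 log2 fold changes was 0.29 in each of the 3 comparisons, which limits what 4 libraries a group can show.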
